A study of Mus musculus with 16 samples.

Results

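CpG-poor promoter OCT4 peaks are sites of OCT4 binding near a start of a protein-coding gene, in sequence low in GC content or in CpG. They were chosen by position and base composition alone. A peak was taken if its midpoint lay within 1 kb of any annotated transcript start of a protein-coding gene, and if its GC content was under 55% or its ratio of observed to expected CpG was under 0.6. That ratio is the number of CpG dinucleotides multiplied by the peak length and divided by the product of the C and G counts. Of 26704 OCT4 peaks, 3674 were promoter-proximal, and 2499 of these were CpG-poor (68%, 95% Wilson interval 66.5 to 69.5%). The CpG-poor promoter peaks made up 9.36% of all peaks. The other 1175 promoter-proximal peaks are called CpG-rich, and 22732 of the peaks farther than 1 kb from a start are called CpG-poor distal.

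The study asked how mouse embryonic stem (ES) cells depend on OCT4 and SOX2 for their chromatin state. It comprised 16 ChIP-seq libraries in 8 groups of 2, of which 4 profiled OCT4. These 4 came from 2TS22C cells, an ES cell line whose only source of SOX2 is a transgene that doxycycline represses. They were 2 untreated libraries (SOX2 ON) and 2 treated with 1 µg/ml doxycycline (SOX2 OFF), all collected at 26 h. Cells of both groups carried the same transgene and grew in serum with LIF and the inhibitors CHIR99021 and PD184352. The peak list merges these cells' OCT4 peaks and gives coordinates only, and the sources do not state which of the 4 libraries entered it. SOX2 ON and OFF were therefore not compared, no peak has a height, replicate or read depth, and the ES cell label could not be checked against expression of marker genes. Peaks are treated below as units of counting and not as biological replicates, so intervals and p-values cover counting error within this 1 list.

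Most mammalian promoters fall into a pair of sequence classes. CpG-island promoters are unmethylated, rich in GC and used in many tissues, whereas CpG-poor promoters tend to be methylated when silent and to serve genes with tissue-restricted expression. OCT4, a POU-domain factor, binds the octamer through its paired DNA-binding domains and often shares a composite site with the HMG-box factor SOX2, in which the octamer stands next to a SOX site.

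The composite motif was searched on both strands as ATTTGCAT (octamer), then A, then ACAATG (SOX site), which together make the 15-base word ATTTGCATAACAATG, with at most 3 mismatches. Matches in the central 200 bp of 10 CpG-poor promoter peaks are shown as examples: all 4 with 1 mismatch, and, of the 29 with 2 mismatches, the 6 whose peak midpoints lay nearest to a start. The latter were thus picked for their closeness to a start and are no sample of where such sites lie. Each is given 5′ to 3′ on the strand where the octamer comes first, with the 15-base match in capitals and 20 bases of mm10 on each side. For the peaks of Lrrc71, Pipox and Nr5a2 the match is exonic and only its 15 bases are shown. Substitutions are counted from 1 at the 5′ end of the composite word, with the base of the word first.
Lrrc71, chr3:87738641-87738655, minus strand, T14A: ATTTGCATAACAAAG
Igfbpl1, chr4:45815693-45815747, minus strand, C11G: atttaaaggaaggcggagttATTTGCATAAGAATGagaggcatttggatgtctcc
Rpe, chr1:66700043-66700097, plus strand, A10G: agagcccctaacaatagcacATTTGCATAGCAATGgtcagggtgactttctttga
Gm14862, chrX:9256047-9256101, minus strand, A1T: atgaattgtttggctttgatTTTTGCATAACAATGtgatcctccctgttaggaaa
Pipox, chr11:77894053-77894067, minus strand, A9G and G15A: ATTTGCATGACAATA
Fam169a, chr13:97067195-97067249, minus strand, T4A and T14A: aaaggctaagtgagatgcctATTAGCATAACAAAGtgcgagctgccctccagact
Sapcd1, chr17:35027661-35027715, plus strand, C6A and T14A: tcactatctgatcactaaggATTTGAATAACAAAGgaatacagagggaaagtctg
Ackr4, chr9:104103032-104103086, plus strand, A10C and A13T: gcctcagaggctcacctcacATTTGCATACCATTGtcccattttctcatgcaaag
Nanog, chr6:122707393-122707447, plus strand, A1T and A9T: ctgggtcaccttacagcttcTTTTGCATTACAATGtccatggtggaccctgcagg
Nr5a2, chr1:136940772-136940786, minus strand, T4A and A9G: ATTAGCATGACAATG

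No CpG-poor promoter peak held the composite word without a mismatch in its central 200 bp. There were 4 with 1 mismatch (0.16%, those of Lrrc71, Igfbpl1, Rpe and Gm14862), 29 with 2 (1.16%) and 105 with 3 (4.2%). In all, 138 of 2499 matched (5.52%, 4.69 to 6.49%). Of the 22732 CpG-poor distal peaks, 6 held the word exactly (0.0264%), 57 had 1 mismatch (0.251%), 348 had 2 (1.53%) and 1718 had 3 (7.56%). With so low a distal share, the absence of an exact word from the promoter peaks is not read as a result. The match of the Rpe peak lay in a peak with 67.5% repeat-masked bases, and 51.6% of its stretches of 31 bases recur elsewhere in the genome. Rpe encodes an epimerase of the pentose phosphate pathway, and its match stood at -761 bp from the start. The other matches with 1 mismatch stood at -82 bp from a later start of Lrrc71, 643 bp downstream of a later start of Igfbpl1 and 825 bp downstream of a start of Gm14862. Gm14862 is a predicted gene. Of the 29 matches with 2 mismatches, 4 lay within 100 bp upstream of a start, those of Fam169a, Sapcd1, Ackr4 (an atypical chemokine receptor) and Nanog at -64, -29, -40 and -69 bp. Over all 29 the positions ran from -838 to 1047 bp, and 23 of them lay more than 200 bp from the start. Pipox, which encodes a peroxisomal oxidase, had its match 36 bp downstream of the start, in an exon.

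The peaks of pluripotency genes were described next. Of 14 pluripotency factor genes, 6 had a CpG-poor promoter peak (Nanog, Esrrb, Tbx3, Zfp42, Sall4 and Nr5a2), and of 19 other ES cell marker genes, 8 did (Dppa4, Dppa5a, Tdgf1, Fbxo15, Tdh, Jarid2, Spp1 and Rif1). Across all 21938 protein-coding genes, 2466 had such a peak, which is 11.2%. None of the 33 genes of these lists had a CpG-rich promoter peak in place of a CpG-poor one. These lists hold known OCT4 targets and were drawn up with earlier results of these data known, so the counts are a description. Stretches of peaks at 4 of these genes, on the strand of the gene and with matches of the composite motif, octamer, SOX core and KLF in capitals, show how the motifs differ between them: a composite match that contains the full octamer in Esrrb and Zfp42, an octamer and a separate SOX core in Tdh, and a SOX core alone in Sall4. The KLF word is CCNCACCC. Words of the other motifs, such as the GC box and AP-2 word of Zfp42, are left in lower case.
Esrrb, chr12:86471026-86471080, plus strand: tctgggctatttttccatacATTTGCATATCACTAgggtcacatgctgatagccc
Zfp42, chr8:43307057-43307215, minus strand: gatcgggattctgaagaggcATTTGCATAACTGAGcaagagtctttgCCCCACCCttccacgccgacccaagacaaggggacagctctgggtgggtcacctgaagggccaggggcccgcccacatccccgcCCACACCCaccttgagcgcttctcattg
Tdh, chr14:63500497-63500585, minus strand: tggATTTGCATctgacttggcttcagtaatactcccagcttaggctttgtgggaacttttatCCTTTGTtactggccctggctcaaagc
Sall4, chr2:168764660-168764706, minus strand: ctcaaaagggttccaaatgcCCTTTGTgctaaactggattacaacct

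The Nanog peak (chr6:122707202-122707578, 377 bp, 53.6% GC, CpG ratio 0.193) lay in intergenic sequence with its midpoint 99 bp upstream of the gene's most upstream start. Nanog encodes a homeodomain factor of the pluripotency network. The Zfp42 peak (chr8:43307002-43307282, 281 bp) was centred 162 bp upstream of the most upstream start, and its GC content of 56.6% was over 55%, so that its CpG ratio of 0.490 alone made it CpG-poor. Zfp42 encodes the zinc-finger protein REX1, a marker of naive ES cells. Its composite match, at -208 bp, had 3 mismatches, and its central 200 bp also held an octamer, KLF, GC box, NFY and AP-2 word. Not all of these peaks sat at the gene's first start. The Esrrb peak (chr12:86470883-86471292, 410 bp) was centred in an intron 971 bp downstream of a later start of this orphan nuclear receptor gene. The peaks of Tbx3 (chr5:119679676-119680298), Sall4 (chr2:168764562-168764892) and both peaks of Nr5a2 (chr1:136940477-136940993 and chr1:136953658-136954066) were likewise near later starts only, at 262, 519, 152 and 232 bp. Tbx3 and Sall4 encode a T-box and a zinc-finger factor, and Nr5a2 a nuclear receptor. The first of the Nr5a2 peaks lay over a coding exon and had the composite match with 2 mismatches, whereas the central 200 bp of the Tbx3 peak held no motif of those searched.

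Among the marker genes, Dppa4 (chr16:48283331-48283781) and Dppa5a (chr9:78368710-78369122), both named for their expression in pluripotent cells, had peaks 177 and 739 bp upstream of their most upstream starts, with no searched motif in the central 200 bp. The Fbxo15 peak, 482 bp upstream, was 1303 bp wide. Tdgf1, which encodes the Nodal co-receptor Cripto, had a peak of 241 bp 390 bp upstream (chr9:110946428-110946668), with a KLF word and no octamer or SOX core. The Tdh peak (chr14:63500230-63500742) lay 227 bp upstream of a later start of this threonine dehydrogenase gene. Jarid2, a partner of Polycomb repressive complex 2, and Spp1, which encodes osteopontin, had peaks 766 and 919 bp upstream, each with a SOX core (chr13:44728458-44728957 and chr5:104434009-104434389). Rif1, a regulator of replication timing, had 2 peaks. The peak at chr2:52071991-52072523 lay 575 bp upstream of a CpG-rich start, and of the 16 peaks at these 14 genes it was the only such peak. The peak at chr2:52090168-52090370 lay 696 bp downstream of a later start.

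**Figure D1:**
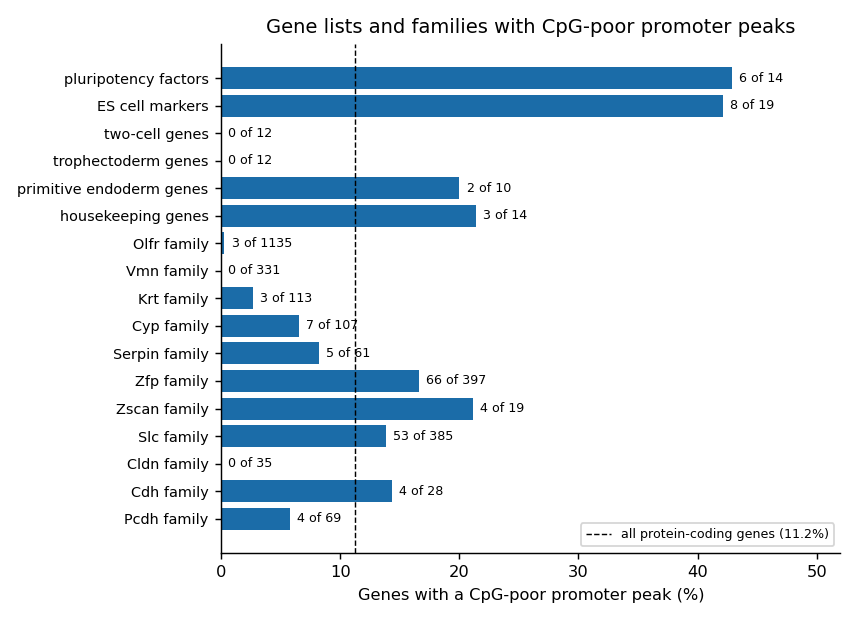
Horizontal bars give the percent of genes of each list or gene family (symbols starting with the given letters) that had a CpG-poor promoter peak, with the count beside the bar, and the dashed line marks the 11.2% of all protein-coding genes. The pluripotency factor and ES cell marker lists reached 42.9% and 42.1%, while the 2-cell, trophectoderm, Vmn and Cldn bars are at 0.

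Of all protein-coding genes, 3624 (16.5%) had a promoter-proximal peak of either kind. The 2-cell and trophectoderm lists had none, 0 of 12 annotated genes in each, and no test was run on lists of this size. The 2-cell list named 14 genes, of which Zscan4a and Dux were not found in the annotation. Of 10 primitive endoderm genes, Pdgfra and Hnf4a had a CpG-poor promoter peak and Sox17 a CpG-rich one. Of 14 housekeeping genes, Gapdh, Sdha and B2m had a CpG-poor promoter peak and Polr2a a CpG-rich one, so 21.4% had a CpG-poor peak against the 11.2% of all genes. Gene families differed more widely. CpG-poor promoter peaks were found at 3 of 1135 olfactory receptor genes (Olfr, 0.264%), 0 of 331 vomeronasal receptor genes (Vmn), 3 of 113 genes with symbols starting with Krt (2.65%) and 0 of 35 claudin genes (Cldn). They were found at 66 of 397 zinc-finger genes with symbols starting with Zfp (16.6%), 53 of 385 solute carrier genes (Slc, 13.8%) and 4 of 19 Zscan genes.

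CpG-poor promoter peaks were spread thinly over genes. They had 2299 different nearest genes, of which 2117 had 1 peak, 167 had 2, 12 had 3 and 3 had 4. The 3 genes with 4 peaks were Parp11, an ADP-ribosyltransferase gene, Pde4d, a cAMP phosphodiesterase gene with many alternative starts, and Sfi1, which encodes a centrosomal protein. All 4 peaks of Parp11 lay in introns within chr6:127447643-127453571. The peaks of Pde4d lay in introns, from chr13:109260290-109260721 to chr13:109684948-109685771, each near a start as the rule requires. Of the 12 genes with 3 peaks, the first by symbol were Ank3, the gene of ankyrin-G, and Cpeb3, which encodes a regulator of mRNA translation. Both had 1 of their peaks in a 5′ UTR. None of these 18 peaks had a composite match, the closest having 4 mismatches.

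The composition of the peaks themselves was set by the rule and is given as a description. GC content averaged 49.7% ± 5.65 (SD, n = 2499 peaks) and the median CpG ratio was 0.393. Of the peaks, 1650 (66%) met both criteria, 468 (18.7%) the GC criterion alone and 381 (15.2%) the CpG ratio alone. Peaks just inside the limits were those of Gspt1 and Cog4 for GC content, of Slc6a16 and Gnpda1 for the CpG ratio and of Cd24a (1000 bp) and Jade2 (999 bp) for the distance. Just outside were Gemin7 and Pnisr, Idh3a and Plbd1, and Zeb2 and Usp10 (both 1003 bp). Within 1 percentage point of the GC limit lay 55 peaks that the CpG ratio would not have admitted, within 0.05 of the CpG limit lay 84 that GC content would not have admitted, and 64 lay within 50 bp of the distance limit.

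**Figure D2:**
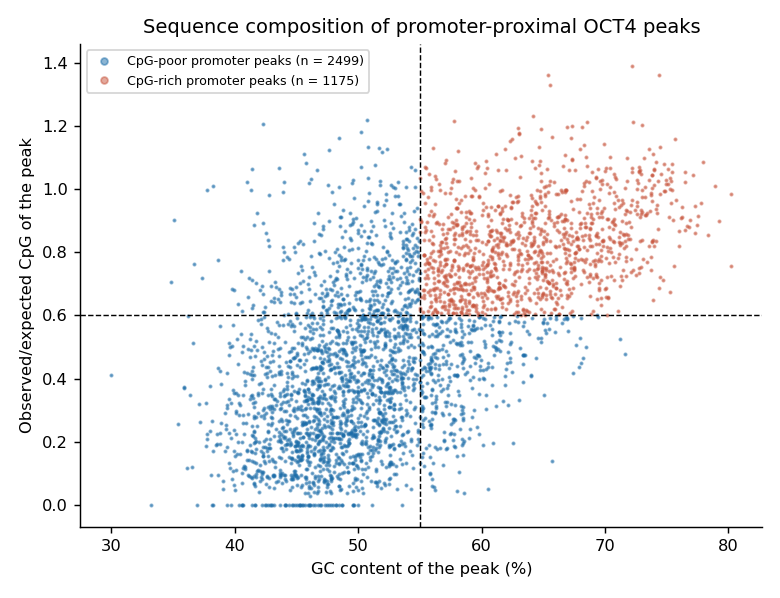
Each point is a promoter-proximal OCT4 peak, with its GC content in percent on the horizontal axis and its ratio of observed to expected CpG on the vertical axis. The dashed lines mark 55% and 0.6, and the CpG-poor peaks left of the first or below the second line (n = 2499) form 1 broad cloud that continues into the CpG-rich peaks (n = 1175) without a gap.

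Relative to the gene, CpG-poor promoter peaks lay upstream of the start more often than CpG-rich ones. Their median distance to the nearest start was 350 bp, against 142 bp for CpG-rich promoter peaks. Distance and CpG content were both used to choose the peaks, so these distances are a description. Midpoints lay upstream of the start in 60.2% of CpG-poor promoter peaks (58.3 to 62.1%) and in 44.2% of CpG-rich ones (41.4 to 47%), an odds ratio of 1.91 (two-sided Fisher's exact test, p = 9.5e-20). The side on which CpG-poor and CpG-rich promoter sequence lies without regard to peaks was not measured. This p-value therefore cannot separate OCT4 binding from the base composition used to form the groups. The bin from 400 to 300 bp upstream held the most CpG-poor peaks, 235, whereas the bin from 0 to 100 bp downstream held the most CpG-rich peaks, 231. The median width was 334 bp, against 319 bp (permutation p = 0.0137), and with starts of protein-coding transcripts only this difference was 13 bp with p = 0.0569.

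The annotation at the midpoint differed accordingly. The rule split the groups by base composition, and the annotation of promoter sequence without a peak was not counted. The p-values by annotation class therefore cannot separate OCT4 binding from base composition. CpG-poor promoter peaks were intronic in 48.4% and intergenic in 29.1% of cases, against 27.2% and 20.2% of CpG-rich ones (odds ratios 2.5 and 1.62, adjusted p = 2.6e-34 and 1.0e-08 Fisher's exact test, Benjamini-Hochberg adjusted for the 6 classes). They lay in a 5′ UTR in 8.6% of cases against 31.2% (odds ratio 0.207, Fisher's exact test, adjusted p = 3.5e-63) and in a coding exon in 3.2% against 11.8% (odds ratio 0.246, adjusted p = 1.2e-22). They were near the gene's most upstream start less often, in 60.3% (58.3 to 62.2%) against 85.4% (83.3 to 87.3%) of cases, and near a start of a protein-coding transcript in 81.3% against 98.2%. The remaining starts belong to transcripts of protein-coding genes that are annotated as another type than protein-coding. Starts of 2 or more protein-coding genes lay within 1 kb of 6.92% of CpG-poor and 15.2% of CpG-rich promoter peaks. Another OCT4 peak lay within 10 kb of 33.4% of CpG-poor and 31.5% of CpG-rich promoter peaks (odds ratio 1.09, Fisher's exact p = 0.258), and 59 CpG-poor peaks shared a start with a CpG-rich one.

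A CpG-poor peak need not mean a CpG-poor promoter. The sequence from 250 bp before to 50 bp after the nearest start was classed by the same 2 criteria, and 852 of the 2499 peaks (34.1%, 32.3 to 36%) lay beside a CpG-rich start. The share was 80.3% (77.9 to 82.4%) for CpG-rich promoter peaks, many of which overlap that window. Of the 1221 CpG-poor peaks that did not overlap the window, 525 lay beside a CpG-rich start (43%, 40.2 to 45.8%). The share was 13.6% of the 729 peaks within 200 bp of the start, 40.7% of the 671 at 200 to 400 bp and 48.6% of the 444 at 400 to 600 bp, and it was 41.3% and 39.1% in the next bins. Close to the start, a CpG-poor peak covers the window itself, which fixes part of the low share in the first bin. Of the 1506 peaks near a gene's most upstream start, 47.2% (44.7 to 49.7%) lay beside a CpG-rich start, against 14.2% (12.2 to 16.5%) of the 993 peaks near later starts only. With both criteria required of a CpG-poor sequence, the 34.1% became 44.7%, and with starts of protein-coding transcripts only it became 41.3%.

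**Figure D3:**
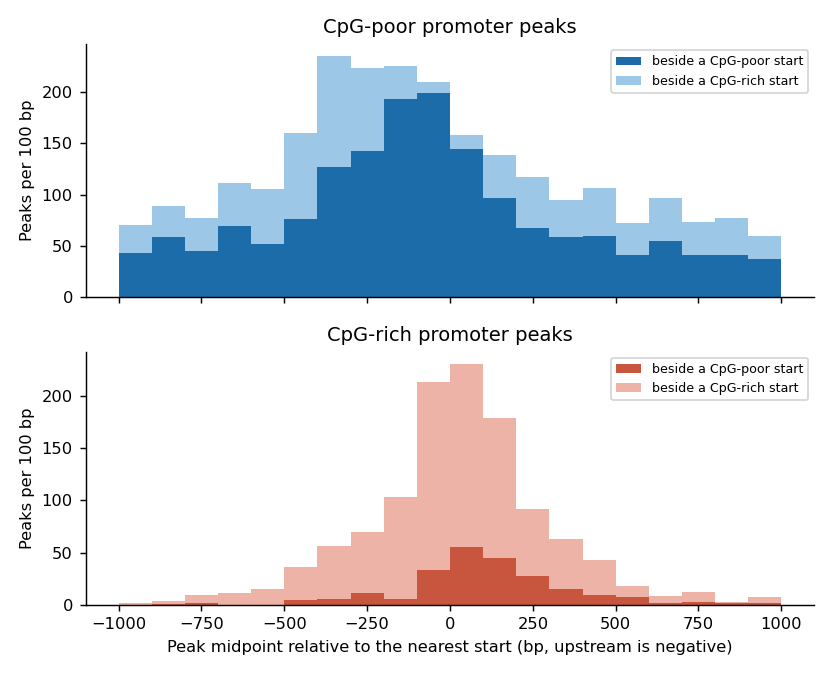
Histograms in 100-bp bins give the number of peak midpoints by their position relative to the nearest start in bp, upstream negative, for CpG-poor (top) and CpG-rich (bottom) promoter peaks, stacked by the CpG class of the start. Most CpG-poor peaks next to the start lie at CpG-poor starts, and peaks beside CpG-rich starts are more frequent farther out, on both sides.

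Seen from the genes, a promoter-proximal peak of either kind was less frequent at CpG-poor starts. It was present at 1717 of 13905 genes whose most upstream start was CpG-poor (12.3%, 11.8 to 12.9%) and at 1907 of 8026 genes with a CpG-rich one (23.8%, 22.8 to 24.7%), an odds ratio of 0.452 (Fisher's exact test, p = 4.0e-103). Genes of the first kind had fewer annotated starts, 3.68 on average against 5.27. A peak near starts of 2 or more genes was counted for each of them, so genes are not independent units in this test. Such peaks were 6.92% of CpG-poor and 15.2% of CpG-rich promoter peaks. Counting peaks at the most upstream start only, an alternative chosen after seeing the data, the shares were 8.72% and 19% (odds ratio 0.407).

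The TATA box was sought as TATAAA or TATATA beginning 40 to 20 bases before the start. It was found at 33 of 2456 different starts beside CpG-poor promoter peaks (1.34%) and at 24 of 1169 beside CpG-rich ones (2.05%, odds ratio 0.65, Fisher's exact p = 0.117). With peaks within 500 bp the odds ratio was 0.47 (Fisher's exact p = 0.0284), and with starts of protein-coding transcripts only it was 0.546 (p = 0.039). The rule split the groups by base composition, and peaks over a start share its sequence. These p-values therefore cannot separate OCT4 binding from base composition. Beside CpG-poor promoter peaks, the word was at 1.55% of CpG-poor and 0.951% of CpG-rich starts. Over all genes, 4.75% (4.41 to 5.11%) of CpG-poor and 1.06% (0.858 to 1.31%) of CpG-rich most upstream starts had the word. Of the 607 most upstream starts that were CpG-poor and next to a CpG-poor promoter peak, 13 had it (2.14%, 1.26 to 3.63%).

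To place the motif content of CpG-poor promoter peaks, 18 motifs were counted in the central 200 bp and compared with 62649 windows of 200 bp around starts of 15502 genes without a peak within 5 kb, all CpG-poor by the same criteria, by Fisher's exact test adjusted over the motifs. The composite motif was present in 5.52% of peaks and 0.816% of these windows (odds ratio 7.11, Fisher's exact test, adjusted p = 1.5e-60). The octamer ATGCAAAT without mismatch was present in 6.76% (5.84 to 7.82%) and 1.12% (odds ratio 6.39, Fisher's exact test, adjusted p = 1.3e-67). The SOX core, CCATTGT or CCTTTGT, was present in 13% (11.8 to 14.4%) and 6.51% (odds ratio 2.15, Fisher's exact test, adjusted p = 1.2e-29). ESRRB (TCAAGGTCA), the word of a nuclear receptor of the pluripotency network, was in 1.52% and 0.464% (odds ratio 3.31, Fisher's exact test, adjusted p = 6.1e-09), and KLF (CCNCACCC) in 11.6% and 7.31% (odds ratio 1.67, adjusted p = 1.9e-13). With windows binned by their number of CpG, an alternative added after seeing the data, these 5 odds ratios were 10.2, 8.2, 2.49, 3.65 and 1.36, all with an adjusted p under 0.05.

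Of the 18 motifs, 14 were more frequent in the peaks than in the windows without one. Besides those above these were GC box (GGGCGG, 12% against 6.66%), ETS (CCGGAAG), CRE (TGACGTCA), E-box (CACGTG), YY1 (ATGGCGG), CTCF, TEAD (ACATTCC), AP-2 (GCCNNNGGC) and AP-1 (TGANTCA), with odds ratios from 1.23 for AP-1 to 1.92 for YY1. With CpG-number bins 8 of the 14 were called, and GC box, ETS, CRE, YY1, CTCF and AP-2 were not, GC box having an odds ratio of 1.07 (Cochran-Mantel-Haenszel test, adjusted p = 0.452, n = 2499 peaks). NFY was sought as the CCAAT box with a cytosine or guanine and then a purine behind it. It, NRF1 (GCATGCGC), STAT (TTCCNGGAA) and the GATA word, which is AGATAAG, had adjusted p-values of 0.249, 0.0598, 1 and 0.894. The words of KLF and GC box, and of the composite and octamer, can overlap, and windows of 1 gene are not independent of each other.

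Compared with CpG-poor distal peaks, CpG-poor promoter peaks held OCT4 and SOX2 motifs less often. The composite motif was present in 5.52% against 9.37% (8.99 to 9.75%), an odds ratio of 0.566 (Fisher's exact test, adjusted p = 1.0e-10), and the SOX core in 13% against 22.2% (21.7 to 22.7%), an odds ratio of 0.526 (adjusted p = 8.3e-28). The octamer was in 6.76% against 8.34% (odds ratio 0.797, Fisher's exact test, adjusted p = 0.0101). By the Cochran-Mantel-Haenszel test this difference had an adjusted p of 0.357 within bins of GC content and 0.294 within bins of CpG number. The windows of promoter peaks averaged 49.1% GC ± 6.54 (SD over peaks) and those of distal peaks 45.7% ± 5.23. Within GC bins the odds ratios of the composite motif and SOX core were 0.673 and 0.581, and within CpG-number bins 0.76 and 0.679 (adjusted p = 0.0178 and 2.1e-08, n = 2499 promoter peaks). With at most 2 mismatches the composite odds ratio was 0.727 with an adjusted p of 0.118. At least 1 of the 3 motifs was present in 553 CpG-poor promoter peaks (22.1%, 20.5 to 23.8%) and in 34.6% of distal ones, so that 1946 promoter peaks (77.9%) held none of them. The octamer and SOX core were counted without mismatch, and all 3 only in the central 200 bp. A peak counted as holding none can therefore still have a site that departs from these words or lies farther out.

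Of the 18 motifs, 7 were more frequent in CpG-poor promoter than in CpG-poor distal peaks. GC box, the SP/KLF-family word, was in 12% against 4.45% (odds ratio 2.93, Fisher's exact test, adjusted p = 1.6e-44), E-box in 4.68% against 2.46% (odds ratio 1.94, adjusted p = 9.1e-09), ETS in 2.52% against 1.18% (odds ratio 2.17, adjusted p = 1.4e-06) and CRE in 0.52% against 0.11% (odds ratio 4.75, adjusted p = 1.3e-04). KLF, YY1 and AP-2 were also higher, with odds ratios of 1.26, 1.89 and 1.29, and TEAD was lower, with an odds ratio of 0.768. NFY, in 6.56% against 6.55%, and NRF1, in 0.64% against 0.55%, did not pass the test (Fisher's exact test, adjusted p = 0.966 and 0.604). Within GC bins KLF and AP-2 had odds ratios of 0.918 and 0.91 and were not called, nor were YY1 and TEAD. Within CpG-number bins only KLF (odds ratio 1.25) and GC box (1.25) of the higher motifs were called, and NRF1 was called lower (0.485).

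**Figure D4:**
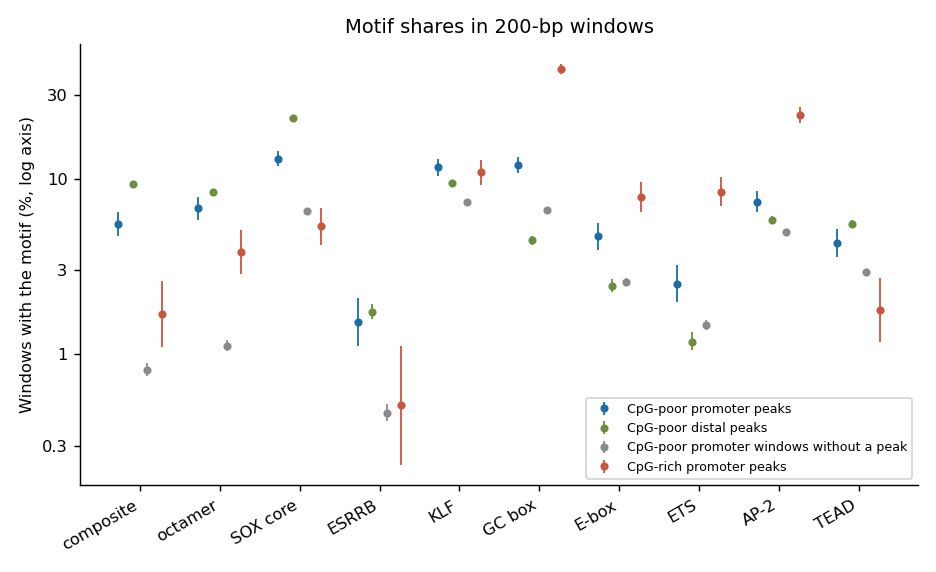
Points give the percent of 200-bp windows with each of 10 motifs on a log axis, with 95% Wilson intervals, for CpG-poor promoter peaks, CpG-poor distal peaks, CpG-poor promoter windows without a peak and CpG-rich promoter peaks. The composite motif and octamer of CpG-poor promoter peaks (5.52% and 6.76%) stand between distal peaks (9.37% and 8.34%) and windows without a peak (0.816% and 1.12%).

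CpG-rich promoter peaks are shown beside these for description only, because their base composition was fixed by the rule. They held the composite motif in 1.7% (1.1 to 2.61%), the octamer in 3.83%, the SOX core in 5.36%, GC box in 42%, AP-2 in 23.1% and ETS in 8.43% of cases. Among CpG-poor promoter peaks, those that met both criteria held the composite motif in 6.61%, those that met GC content alone in 3.21% and those that met the CpG ratio alone in 3.67%, with GC box in 6.91%, 16% and 29.1%.

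Within the CpG-poor promoter peaks, the motifs varied with the class of the start. The composite motif was present in 33 of 852 peaks beside a CpG-rich start (3.87%, 2.77 to 5.39%) and in 105 of 1647 beside a CpG-poor start (6.38%, 5.29 to 7.66%), an odds ratio of 0.592 (Fisher's exact test, p = 0.00952). The SOX core was in 9.39% and 14.9% (odds ratio 0.59, Fisher's exact p = 7.6e-05) and the octamer in 6.1% and 7.1% (odds ratio 0.85, p = 0.357). Peaks beside CpG-rich starts had a mean GC content of 50.6% ± 5.85 (SD over peaks) against 49.1% ± 5.49, and a median distance of 447 bp against 289 bp. Their median CpG ratio was 0.527 against 0.319. Bins of CpG number were not run here, so the part of this difference in the motif shares was not tested. Within GC bins the composite odds ratio was 0.617 (Cochran-Mantel-Haenszel p = 0.0169, n = 2499 peaks). With both criteria required it was 0.863 (Fisher's exact p = 0.487) and with at most 2 mismatches 0.516 (p = 0.14).

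By distance, the composite motif was in 5.08%, 5.07%, 5.18%, 7.02% and 6.35% of the peaks in successive 200-bp bins from the start, with overlapping intervals. The octamer was in 4.5% to 8.36% without an order. The SOX core was in 10.8% of peaks within 200 bp of the start (8.78 to 13.3%) and in 20.7% of those at 800 to 1000 bp (16.5 to 25.7%), close to the 22.2% of distal peaks. Mean GC content moved with distance as well, from 51.4% in the nearest bin to 47.4% in the farthest, and its part in the SOX core share was not tested.

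**Figure D5:**
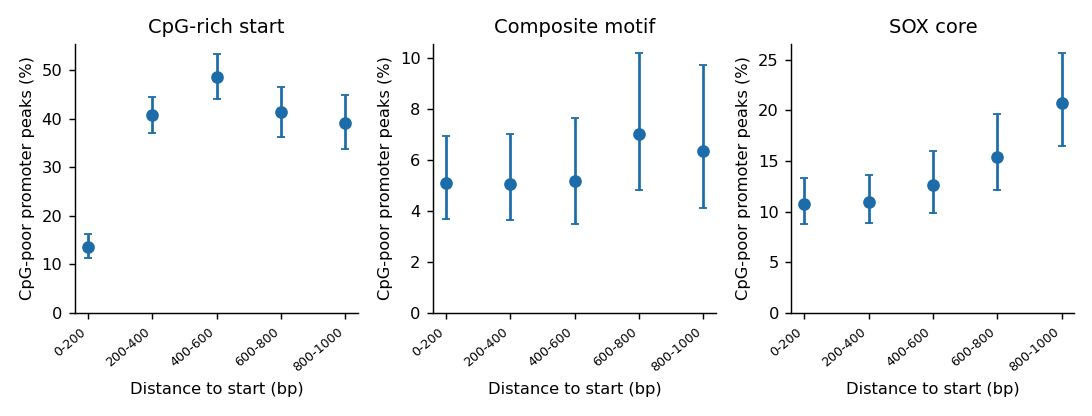
For CpG-poor promoter peaks in 5 bins of distance to the start in bp, points give the percent beside a CpG-rich start (left), with the composite motif (middle) and with the SOX core (right), with 95% Wilson intervals. The CpG-rich start share goes from 13.6% to 48.6% over the first 3 bins, the composite share stays between 5.07% and 7.02%, and the SOX core share goes from 10.8% to 20.7%.

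Composite matches themselves lay upstream of the start in 90 of 138 peaks (65.2%, 57 to 72.7%), and 29 of the 138 (21%) lay within 200 bp upstream, as in the Nanog and Ackr4 peaks. Of the midpoints of all 2499 CpG-poor promoter peaks, 60.2% lay upstream, which is inside that interval. The bins from 200 to 100 bp and from 100 to 0 bp upstream held 225 and 210 of these 2499 midpoints. The octamer stood on the strand of the gene in 70 of 138 (50.7%, 42.5 to 58.9%), so no orientation relative to transcription was detectable at this number. The median distance of a match from the peak midpoint was 40 bp, against 34 bp in distal peaks (two-sided permutation test, p = 0.122).

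Among all 32896 8-mers, each joined with its reverse complement, 2083 (6.33%) were more frequent in CpG-poor promoter than in CpG-poor distal peaks and 729 (2.22%) less frequent, at an adjusted p under 0.05. Of the more frequent ones 92.8% contained CpG, against 38.1% of all 8-mers and 0.274% of the less frequent ones. The median CpG ratio was 0.393 in promoter and 0.184 in distal peaks, and within bins of CpG number 15 and 3 8-mers were called in place of 2083 and 729. The largest ratio was that of CTCTCCGC, present in 30 promoter peaks (1.2%) and 37 distal peaks (0.163%), a ratio of 7.38 (Fisher's exact test, adjusted p = 8.8e-10), and with an adjusted p of 0.00416 within CpG bins it was still called. GCAGCCGC, CTCCGCTC, ACCCGGAA and CCCCGGGC followed with ratios from 4.81 to 5.05, none of them called within CpG bins. The lowest ratio was that of ATGGCCTA, present in 0.32% of promoter and 2.26% of distal peaks (ratio 0.142, Fisher's exact test, adjusted p = 1.7e-10). It and AGAGTTAG, CCTAAGTA and GCAGACTA had an adjusted p between 0.119 and 0.416 once repeat-masked peaks were left out, while AATAGACT had 0.0355 (Fisher's exact test). Within CpG bins none of these words was called, with adjusted p from 0.0583 to 0.289 (Cochran-Mantel-Haenszel test).

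Repeats were rarer at promoters than among distal peaks. More than 50% of the bases were repeat-masked in 134 CpG-poor promoter peaks (5.36%, 4.55 to 6.32%), 17.8% of distal peaks and 0 of 1175 CpG-rich ones, and more than 50% of 31-mers were multi-copy in 2.2%, 7.66% and 0.681%. Reads can be hard to place in such sequence, but their placement was not measured at the read length. The 3 widest CpG-poor promoter peaks were all of this kind. They were the peaks of Gm10719 (chr9:3000032-3038199, 38168 bp, 96.3% repeat-masked, 93.0% of 31-mers multi-copy), AW822073 (chr10:58223278-58225603, 2326 bp, 69.5% multi-copy) and Gm10801 (chr2:98662247-98663998, 1752 bp, 61.1% multi-copy).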

How the data were processed

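The authors aligned ChIP-seq reads to mm10 (GRCm38) with STAR 2.6.1c, removed duplicates with Picard, called peaks with MACS2 2.1.1.20160309 in paired-end mode and merged them with BEDTools. For its analyses the paper also removed very wide peaks and those overlapping input peaks or blacklisted regions. The list used here still holds the Gm10719 peak of 38168 bp, so it was not filtered by width. Whether the other filters were applied to it is not stated. The deposited values are the start and end coordinates of each merged peak, in base pairs, with no height, score or library. Depth is therefore unknown, and merging makes a width the union of the peaks behind it. The BRG1 and H3K27ac libraries and the SOX2 ON against OFF comparison were not analysed here.

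Sequence came from the GRCm38 reference and starts from all transcripts of protein-coding genes in GENCODE M21. Coordinates are 1-based. Motifs were counted on both strands in the central 200 bp. Control windows were centred at -700, -350, 0, 350 and 700 bp from the most upstream start of genes without a peak within 5 kb, and kept where the surrounding 350 bp met the CpG-poor criteria. Tests of shares were two-sided, by Fisher's exact test or the Cochran-Mantel-Haenszel test over 5-point GC bins or bins of CpG number, with Benjamini-Hochberg adjustment over 18 motifs or 32896 8-mers, and medians by permutation with 100000 resamples. Peaks with over 50% lower-case reference bases were taken as repeat-masked, and those with over 50% of 31-mers found more than once in the genome as multi-copy. The comparison of 8-mers was tested on simulated data. There 20 of 20 8-mers planted in 3% of 2499 windows were found, and 0 were called with nothing planted. Planted shares under 3%, such as the 1.2% of CTCTCCGC in promoter peaks, were not tested. The number of calls between windows that differ in CpG ratio was not tested either. The medians of promoter and distal peaks were 0.393 and 0.184. Tools were Python 3.11.15, NumPy 2.4.6, SciPy 1.17.1, numba 0.67.0 and matplotlib 3.10.9.

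Members, gene lists and motifs were chosen with earlier results of these data known. By rule, the text names the genes of the pluripotency factor and ES cell marker lists with a member, the 10 members with the fewest composite mismatches (ties taken by distance of the midpoint to the start), the 5 genes with the most members (ties by symbol), the 3 widest members, the 2 peaks on either side of each limit and the 5 8-mers with the largest and smallest ratios among those called and present in at least 1% of the group where they were more frequent. Symbols of other listed genes and family counts are given without values. The comparisons by annotation, by first and later start and by distance bin, and those of match position, were chosen after seeing the data. Alternatives changed the transcript set, distance, composition criteria, repeats, width, motif window, mismatches and base composition.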

Additional observations from a re-analysis of the deposited data

How the results depend on the processing

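No paired analysis was possible because the merged coordinates carry no replicate, and for the same reason no replicate could be left out. Composite, octamer and SOX core odds ratios against windows without a peak stayed above 1 and were called under every alternative run, as did the SOX core against distal peaks below 1. The upstream share and the share of genes with a peak also kept their direction and call. The number of CpG-poor promoter peaks became 1650 with both criteria required and 1489 with peaks of at least 300 bp. The share beside a CpG-rich start became 41.3% with protein-coding transcripts only, 30.2% within 500 bp, 44.7% with both criteria and 31.5% with peaks of at least 300 bp. Of 11 motifs called against distal peaks, 6 were called with both criteria, 7 with peaks of at least 300 bp, 7 in the central 100 bp, 6 in GC bins and 5 in CpG bins, and of 14 against windows without a peak, 8 in CpG bins. The composite share became 6.61% with both criteria, 3.04% in the central 100 bp and 1.32% with at most 2 mismatches. Its odds ratio by start class was 0.863 with both criteria and 0.516 with at most 2 mismatches, both no longer called. The TATA odds ratio was 0.546 with protein-coding transcripts only and 0.47 within 500 bp, both called. The number of 8-mers higher and lower was 1369 and 275 without repeat-masked peaks, 36 and 59 with both criteria, 313 and 138 in the central 100 bp, 1289 and 236 in GC bins, and 15 and 3 in CpG bins. The width difference was 13 bp with protein-coding transcripts only, and the odds ratio of a neighbour within 10 kb was 1.16 with both criteria, now called. Reversed odds ratios against distal peaks were, with both criteria, 1.01 for ESRRB and 0.928 for NFY, without multi-copy peaks 0.976 for NFY, in the central 100 bp 1.09 for ESRRB and 0.824 for NFY, in GC bins 0.918 for KLF, 0.86 for NRF1 and 0.91 for AP-2, and in CpG bins 1.1 for ESRRB, 0.941 for E-box, 0.931 for YY1, 0.485 for NRF1 (called, lower) and 0.999 for AP-2. Against windows without a peak GATA reversed to 0.947 with protein-coding transcripts only, 0.894 within 500 bp, 0.981 without repeat-masked peaks, 0.995 with peaks of at least 300 bp and 0.992 in the central 100 bp, STAT to 1.44 within 500 bp, 1.11 with both criteria, 1.26 in the central 100 bp and 1.03 with control windows within 500 bp, and NRF1 to 0.995 in CpG bins. Requiring both criteria or wider peaks leaves fewer peaks, while the causes of the other changes were not tested. CpG bins, GC bins in the comparison by start class and the most upstream start alone were added after seeing the data. Without peak heights or library depth, a weak site cannot be told from an absent one.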

Other observations

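CpG-poor promoter peaks were not equally frequent on all chromosomes. Their share of a chromosome's OCT4 peaks was highest on chromosome 7, at 12% (171 of 1430), and on chromosome 2, at 11.1% (219 of 1970), and lowest among chromosomes 1 to 19 and X on chromosome 12, at 6.97% (78 of 1119). On chromosome X, 62 peaks were CpG-poor promoter peaks, 9.6% of the 646 there, whereas 0 of the 14 peaks on chromosome Y were. Chromosome X held 2.48% (1.94 to 3.17%) of CpG-poor promoter peaks and 0.596% (0.289 to 1.22%) of CpG-rich ones, from 62 and 7 peaks, and 2.53% of CpG-poor distal peaks. These shares were looked at after the other results, and no test was run on them.

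Peaks with both an octamer and a SOX core but no composite match were few, 9 of 2499 (0.36%), and include the Tdh peak. Of the 138 peaks with a composite match, 39 (28.3%, 21.4 to 36.3%) held the octamer without mismatch.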
